A study of Mus musculus with 9 samples.

Results

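Gene expression in the central cornea was compared between SJL/J (SJL) mice, which the labels give a thick cornea, and C57BLKS/J (KS) mice, which they give a thin one. The comparison used the 3 SJL arrays and the 3 KS arrays of the 9 in the series, chosen by their sample titles. The other 3 arrays came from C57Bl/6J (B6) mice, whose corneal thickness the labels do not state. All mice were untreated inbred males aged 4 months, and each array held RNA of 1 mouse from pooled 2-mm punches of the left and right central cornea. Thickness did not vary by design within a strain, so thickness and the other differences of these strains cannot be told apart. Each strain was replicated by 3 mice.

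The cornea is a clear window built of a stratified epithelium, a stroma and an inner endothelium. Superficial epithelial cells carry membrane mucins and tight junctions, wing cells below them are bound by desmosomes and connexins, and basal cells attach to the basement membrane through hemidesmosomes. Keratocytes make the collagen and proteoglycans of the stroma, and the endothelium pumps ions so that water leaves the stroma. Stromal matrix genes were set aside here except where a cell layer list holds them. A punch mixes all of these cells, so fewer cells of a type and less RNA per cell cannot be told apart.

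Values are probe set intensities on a linear scale, analysed as log2(intensity + 10), which understates the change of dim genes. A gene stands for its brightest single-symbol probe set by mean log2 value, and "called" means a limma adjusted p under 0.05. The epithelial and stromal identity of the punches was clear in both strains. Krt12, the keratin of differentiated corneal epithelium, read 26977, 26364 and 27083 in KS and 27258, 26007 and 26547 in SJL, and Kera, which encodes the corneal proteoglycan keratocan, read 12035, 12010 and 11129 and 12171, 11899 and 11297. Neither gene was called, nor were Krt5, Pax6 or Lum (-0.01, -0.02 and 0.04 on the log2 scale). Arrays of KS correlated with one another at 0.9917 to 0.994 over the tested probe sets and arrays of SJL at 0.9822 to 0.9932, while KS and SJL arrays correlated at 0.9565 to 0.9675. The median SD within a strain was larger in SJL (0.18 log2 units) than in KS (0.12).

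Of 10956 genes tested, 1625 (14.8%) were called, 747 higher in SJL (6.82%) and 878 lower (8.01%). A difference of at least 2-fold was reached by 622 of them (5.68%), of at least 4-fold by 178 and of at least 8-fold by 68, with more lower than higher genes in each class (378 against 244, 106 against 72 and 41 against 27). Another 428 called genes differed by under 1.5-fold. The 3 SJL arrays lay entirely above or entirely below the 3 KS arrays in 3879 genes (35.4%), among them all 1625 called genes. Of the called genes, 904 were also called in the same direction in each of 9 fits that left out 1 array, 388 higher and 516 lower. Those genes are said below to have kept their call. The number called fell to 1048 without KS replicate 2 (463 higher, 585 lower), and 479 genes were higher without KS replicate 3. Arrays are written below by strain and number, so that KS 2 is KS replicate 2.

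Calls were more frequent among dim genes. In the 2192 genes of lowest mean intensity 17.6% were called with a median absolute log2 difference of 1.11, and in the 2191 brightest 8.31% with a median of 0.52. Muc4, Krt13, Krt15, Piezo2 and Fscn1, described below, were exceptions among the bright genes and differed by over 2-fold. Defb1, an epithelial beta-defensin, was another bright gene called and read 11210, 10196 and 11425 on the KS arrays and 7471, 6479 and 5906 on the SJL arrays (log2 difference -0.73 ± 0.12, SE, limma adjusted p = 0.00343).

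**Figure D1:**
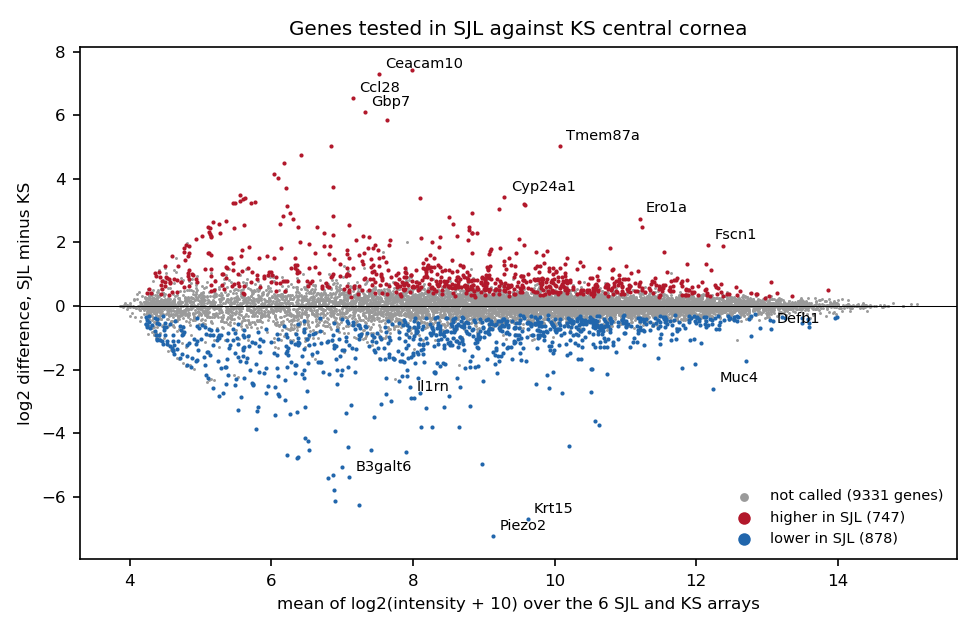
Each point is 1 of the 10956 tested genes, with the mean of log2(intensity + 10) over the 6 SJL and KS arrays on the x axis and the log2 difference of SJL minus KS on the y axis. Red points are the 747 genes called higher in SJL, blue points the 878 called lower and grey points the rest, and the spread of the called genes narrows towards the bright end.

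In the superficial epithelial list the mucins Muc1 and Muc4 were lower in SJL, the mucin Muc20 was not called (-0.18, adjusted p = 0.52), and junction genes were called in both directions. Of 24 tested members 4 were lower and 3 higher (29.2% against 14.8% of all genes), and the median log2 difference was -0.09, against 0.02 over all genes. Muc1, a membrane mucin of the ocular surface, was at 1024, 733 and 1191 in KS and 177, 156 and 70.9 in SJL (-2.84 ± 0.40, adjusted p = 0.00199). Muc4, a much larger membrane mucin that is abundant in this tissue, had 13420, 10713 and 11617 in KS against 2120, 1848 and 1900 in SJL (-2.60 ± 0.11, adjusted p = 1.64e-06). Every SJL array was far below every KS array for both mucins, and the B6 arrays of Muc4, at 14246, 12442 and 13193, sat with KS. The second tested probe set of Muc4 was not called.

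Ocln, the tight junction protein occludin, read 2064, 2318 and 1999 on the KS arrays and 1323, 1059 and 1065 on the SJL arrays (-0.89 ± 0.15, adjusted p = 0.00414). Psca, a small GPI-anchored protein of the cell surface, was at 14137, 13546 and 14250 in KS and 10377, 10659 and 10914 in SJL (-0.39 ± 0.08, adjusted p = 0.0101). Muc1, Muc4, Ocln and Psca kept their calls. The higher members were the claudins Cldn4 (1.19 ± 0.28, adjusted p = 0.0203) and Cldn7 (0.32 ± 0.08, adjusted p = 0.0291) and the Ly6-type protein Lypd3 (0.31 ± 0.09, adjusted p = 0.0466), and none of those 3 kept it. Cldn4 lost its call without KS 1, KS 2, SJL 1 or SJL 2 (adjusted p 0.0533 to 0.0722), Cldn7 without KS 1, KS 2, KS 3, SJL 1 or SJL 3 (adjusted p 0.0565 to 0.0963) and Lypd3 without B6 2, B6 3, KS 1, KS 2, KS 3, SJL 1, SJL 2 or SJL 3 (adjusted p 0.0505 to 0.148). The called superficial epithelial genes numbered 4 without KS 1 or KS 2. Muc16, the other large mucin of the corneal surface, had a dim probe set throughout and fell under the filter. Aqp5, the water channel of the corneal epithelium, was bright and level (0.05, adjusted p = 0.73).

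Among wing cell genes the connexins Gjb2 and Gjb6 moved in opposite directions, and the brighter connexin gene Gja1 was not called (means of 17043 in KS and 16416 in SJL). Gjb2, connexin 26, had 4834, 4705 and 5163 in KS against 7955, 6663 and 7802 in SJL (0.60 ± 0.10, adjusted p = 0.00389). Gjb6, connexin 30, read 644, 385 and 451 on the KS arrays and 92.7, 106 and 94.5 on the SJL arrays (-2.19 ± 0.20, adjusted p = 0.000156). Gjb6 in B6, at 115, 76.2 and 88, lay near SJL, and Gjb2 in B6, at 7141, 7880 and 7143, lay within the SJL range. Both kept their calls. Sbsn, suprabasin of the upper layers, was lower (-1.52 ± 0.24, adjusted p = 0.00358), as was Tgm1, the transglutaminase that crosslinks cell envelopes (-1.03 ± 0.29, adjusted p = 0.0482). Sbsn kept its call and Tgm1 lost it without B6 1, B6 2, B6 3, KS 1, KS 2, KS 3, SJL 1 or SJL 3 (adjusted p 0.0545 to 0.148). The 4 called of 22 tested members make 18.2%, near the 14.8% of all genes. The remaining 18 were not called, Krt12 and the desmosomal Dsp (-0.05) among them, and the median was near 0.

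Of 22 tested basal cell genes 3 were higher and 2 lower (22.7% against 14.8% of all genes). Itgb4, the integrin subunit of hemidesmosomes, was at 1001, 1097 and 1070 in KS and 1666, 2195 and 2092 in SJL (0.90 ± 0.15, adjusted p = 0.00407). Lama3, a chain of laminin-332, had 2479, 2273 and 2537 in KS against 4750, 3929 and 3849 in SJL (0.77 ± 0.13, adjusted p = 0.00379). Lamb3, another chain of the same laminin, was higher too (0.83 ± 0.18, adjusted p = 0.0139). Itgb4 and Lama3 kept their calls, and Lamb3 lost it without KS 2, KS 3 or SJL 3 (adjusted p 0.0513 to 0.0549).

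Bcam, a receptor for the laminin alpha-5 chain, moved the other way and read 258, 280.1 and 286 on the KS arrays and 33.6, 48.9 and 44.8 on the SJL arrays (-2.45 ± 0.15, adjusted p = 1.39e-05). Lama5, which encodes that alpha-5 chain, was also lower (-0.54 ± 0.15, adjusted p = 0.0451), and that call was lost without B6 1, KS 1, KS 2, KS 3, SJL 1 or SJL 2 (adjusted p 0.0641 to 0.142). Bcam kept its call, with B6 at 239, 315 and 239, around the KS range. The other 17 of 22 basal members were not called, including Krt5, Krt14 (0.29) and the hemidesmosome genes Itga6 (0.08), Col17a1 (0.13), Dst (0.05), Plec (0.03) and Cd151 (0.05). The basal genes called numbered 3 without KS 2 or KS 3.

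Genes listed for limbus and conjunctiva were lower in 5 of 18 cases and higher in 2, a share of 38.9% against 14.8% of all genes. Krt13, a keratin of conjunctival and other mucosal epithelia, was at 11901, 12531 and 11929 in KS and 3216, 4307 and 3605 in SJL (-1.72 ± 0.12, adjusted p = 3.57e-05). Krt15, a keratin of basal and limbal cells, was at 7043, 7841 and 9353 in KS and at 251, 73.5 and 11.2 in SJL, with a wide spread among the SJL mice. Krt18, a simple epithelial keratin, had 415, 390.5 and 399 in KS against 189, 252 and 154 in SJL (-1.01 ± 0.15, adjusted p = 0.0027). The B6 arrays lay near KS for Krt13 (13091, 11014 and 12000) and lay below both strains for Krt18 (108, 101 and 104).

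The secreted hormone subunit Gpha2 of limbal cells was lower as well (-1.78 ± 0.31, adjusted p = 0.00579), and Ifitm3, an interferon-induced membrane protein, was lower with a call lost without B6 2, KS 1, KS 2, KS 3, SJL 1, SJL 2 or SJL 3 (adjusted p 0.0571 to 0.153). Sox9, a transcription factor of progenitor cells, was higher (0.82 ± 0.18, adjusted p = 0.0162) but lost its call without KS 1, KS 2 or SJL 3 (adjusted p 0.0545 to 0.059). Cxcl14 is described with the chemokines. Summed over all 25 listed genes on the array, the intensities ranged from 51005 to 55375 in KS, from 35182 to 37282 in SJL and from 56946 to 65554 in B6, so the SJL sums lay below all others. Krt13 and Krt15 account by themselves for most of that gap, and 9 of the 25 genes were dim on all 6 arrays. The goblet cell markers Muc5ac, Tff1 and Spdef were among the dim ones in both strains.

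**Figure D2:**
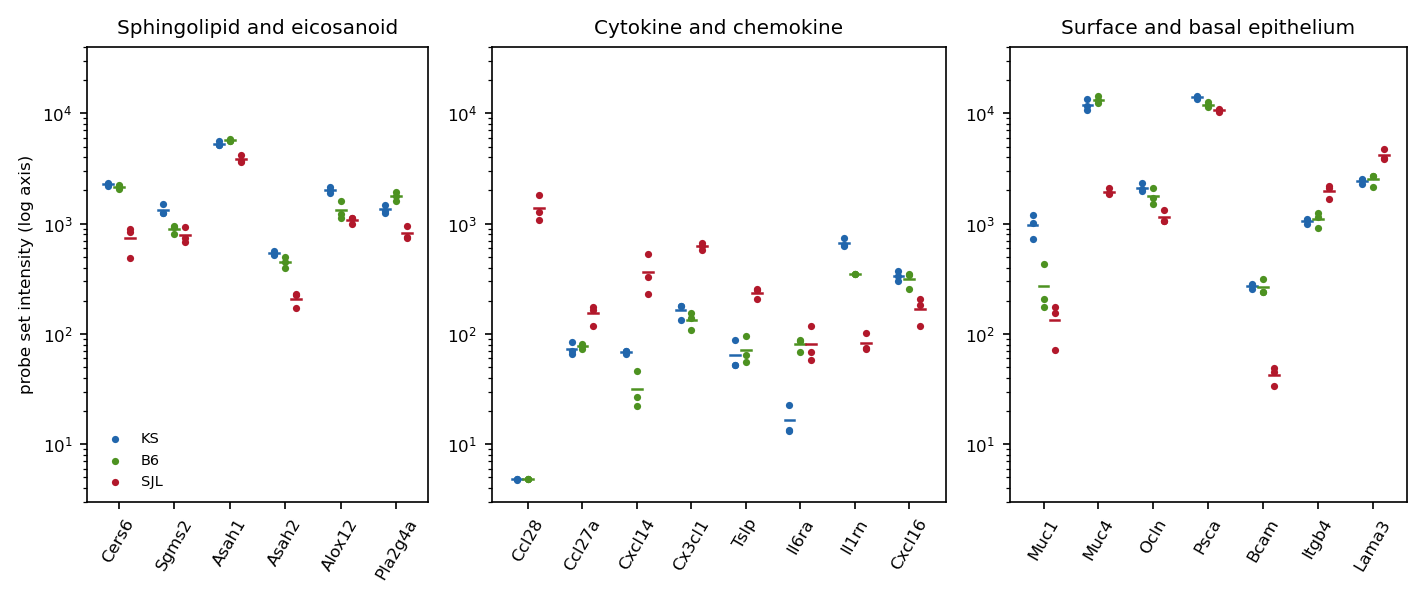
Points are the intensity of a probe set on 1 array (log axis) for KS, B6 and SJL, and short lines are the strain means, for sphingolipid and eicosanoid genes, cytokine genes, and genes of the epithelial surface and base. Only called genes are shown, and SJL and KS arrays did not overlap in any called gene, so their separation here follows from that choice. B6 lies with KS for Muc4, Bcam and Cers6 and with SJL for Il6ra.

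Stromal keratocyte genes were called at a rate near that of all genes. Of 26 tested members 0 were higher and 4 lower (15.4% against 14.8%), and the median was -0.26, against 0.02 over all genes. Serping1, the C1 inhibitor, read 2809, 3800 and 3617 on the KS arrays and 1499, 1649 and 1486 on the SJL arrays (-1.13 ± 0.13, adjusted p = 0.000621) and kept its call. Dcn (decorin) (-0.38 ± 0.08, adjusted p = 0.0168), Aldh1a1 (-0.40 ± 0.09, adjusted p = 0.0143) and Vim (vimentin) (-0.37 ± 0.10, adjusted p = 0.0327) were lower by less, and each lost its call in at least 2 of the 9 fits. The called keratocyte genes numbered 1 without SJL 3 and 2 without KS 1, KS 2 or KS 3. Dcn was lost without KS 2, KS 3 or SJL 3 (adjusted p 0.0513 to 0.0691), Aldh1a1 without KS 1 or SJL 3 (adjusted p 0.0524 to 0.0557) and Vim without B6 1, KS 1, KS 2, KS 3, SJL 1 or SJL 3 (adjusted p 0.0502 to 0.12).

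Corneal endothelial genes were lower in 5 of 15 cases and higher in 0, a share of 33.3% against 14.8% of all genes, with a median of -0.29. Slc16a1, the lactate transporter that the endothelium uses to export acid, was at 659.9, 669.9 and 694 in KS and 258, 255 and 244 in SJL (-1.38 ± 0.12, adjusted p = 9.37e-05). Atp1b1, the beta subunit of the sodium pump, had 5981, 5777 and 5118 in KS against 2941, 2810 and 2253 in SJL (-1.08 ± 0.15, adjusted p = 0.00169). Its 3 other tested probe sets were lower as well. Slc16a1 and Atp1b1 kept their calls. Aqp1 (a water channel), Zeb1 (a transcription factor) and Efna5 (an ephrin) were lower (-0.30, -0.64 and -0.73 on the log2 scale), and lost their calls without 4 to 7 of the arrays. The endothelial genes called numbered 2 without KS 2 or KS 3 and 3 without SJL 2 or SJL 3. The remaining 10 members were not called. Among these, the KS and SJL means were 3412 and 3500 for Col8a2, 1188 and 1394 for Tfap2b and 10824 and 10659 for Slc12a2. They were 2479 and 1924 for Slc4a11 and 2032 and 1276 for Col8a1. Slc16a1, Atp1b1 and Zeb1 are also expressed outside the endothelium, so their levels do not measure that layer alone.

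Resident leukocyte genes were mostly dim. Of 25 on the array, 11 were below an intensity of 16 on all 6 arrays, and the 25 summed to 2444 to 3759 in KS and 1834 to 2250 in SJL. Of 16 tested, 4 were lower and 2 higher (37.5% against 14.8% of all genes). Aif1, a macrophage protein, read 54.3, 91 and 40.5 on the KS arrays and 11.7, 11.1 and 9.75 on the SJL arrays (-1.73 ± 0.22, adjusted p = 0.00109), and the class II gene H2-Ab1 was at 46.6, 45.4 and 46.6 in KS and 27.1, 25.5 and 20.4 in SJL (-0.72 ± 0.13, adjusted p = 0.00745). Itgam, the alpha-M integrin of myeloid cells, ran the other way and had 25.9, 22.9 and 19.3 in KS against 73.9, 43.4 and 68 in SJL (1.11 ± 0.19, adjusted p = 0.00519). Cd14, the endotoxin co-receptor, was higher too (0.65 ± 0.14, adjusted p = 0.0127). Those 4 kept their calls, whereas Cd74 and C1qb were lower with calls lost without SJL 3 (adjusted p = 0.0535) and without B6 1, B6 2, B6 3, KS 1, KS 2, SJL 1 or SJL 3 (adjusted p 0.0624 to 0.149) respectively.

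The nerve and Schwann cell list had 3 lower members of 8 tested (37.5% against 14.8% of all genes). Gap43 among them passed the filter only through its KS arrays, so it entered this count because it was higher there. Ngfr, the low-affinity neurotrophin receptor, read 869.7, 540 and 566 on the KS arrays and 128, 134 and 173 on the SJL arrays (-2.09 ± 0.19, adjusted p = 0.000174) and kept its call. Gap43, a growth cone protein, was dim and lower (-0.90 ± 0.20, adjusted p = 0.0165), a call lost without SJL 3 (adjusted p = 0.0504), and Ncam1 was lower (-0.43 ± 0.11, adjusted p = 0.0352), a call lost without B6 1, KS 1, KS 2, KS 3, SJL 1, SJL 2 or SJL 3 (adjusted p 0.0521 to 0.126). The called nerve genes numbered 1 without SJL 3. Of the 18 listed genes on the array 10 were dim on all 6 arrays, Sox10 and Foxd3 of the Schwann cell lineage among them.

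Genes of tissues next to the cornea were measured as a check. Photoreceptor genes stood out on KS 3, where the 18 retina genes on the array summed to 11755 against 2859 on the lowest KS array and 2975 to 3446 in SJL. None of the 12 tested retina genes was called, although their median was -1.54 with all arrays and 0.00 without KS 3, and the largest member, Rpgrip1, was level (0.11 ± 0.10, adjusted p = 0.494). The retina genes called numbered 1 without KS 1 or KS 3. The 18 lens genes on the array summed to 100 to 102 in KS and 123 to 254 in SJL. The gap lay in a crystallin and a lens filament gene, with Cryba4 at 12.9, 77.3 and 26.5 and Bfsp1 at 35.1, 102 and 80.5 on the SJL arrays, and each other listed crystallin stayed at the lower end of the scale in SJL. Cryba4 and Bfsp1 were called higher and both lost it, Cryba4 without KS 1, KS 2, KS 3 or SJL 3 (adjusted p 0.0675 to 0.0907) and Bfsp1 without KS 1, KS 2, KS 3, SJL 2 or SJL 3 (adjusted p 0.0574 to 0.0869). Cryba4 passed the filter only through its SJL arrays. The called lens genes numbered 0 without KS 1, KS 2, KS 3 or SJL 3 and 1 without SJL 2. The 14 pigment cell and iris genes summed to 531 to 805 in KS and 309 to 472 in SJL, with Best1 lower (-1.18 ± 0.19, adjusted p = 0.0037). Muscle and blood vessel lists had 2 and 1 tested members and 0 calls, Tnni2 (0.03 ± 0.16, adjusted p = 0.939) and Kdr (-0.70 ± 0.24, adjusted p = 0.0857) being their brightest. The part these tissues play in the results below was not tested.

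**Figure D3:**
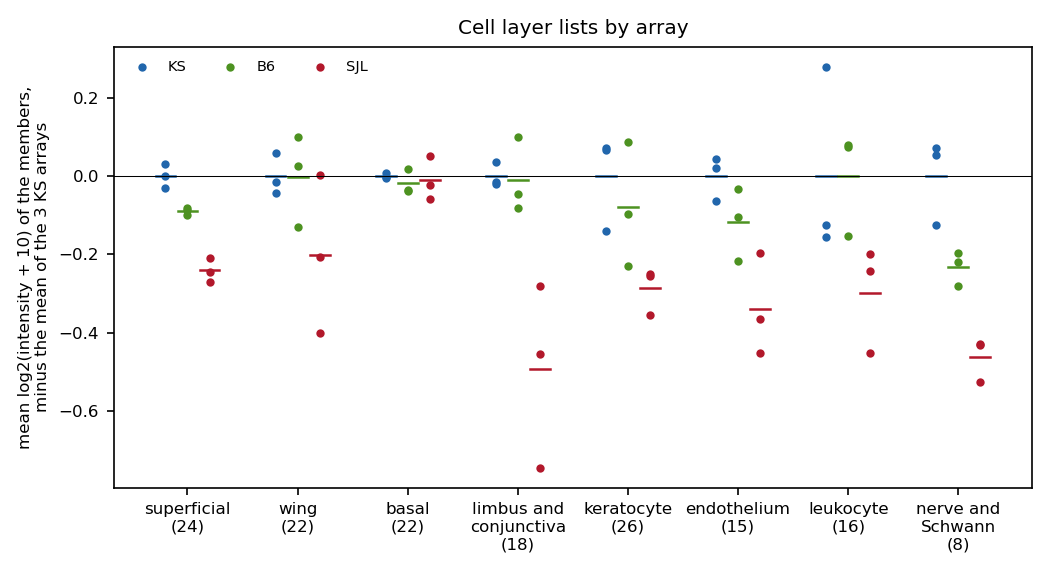
For each cell layer list, points give the mean of log2(intensity + 10) over the tested members (number in brackets) on 1 array, minus the mean of the 3 KS arrays, and lines are strain means. All SJL points lie below all KS points for the superficial, limbal and conjunctival, keratocyte, endothelial, leukocyte and nerve lists, whereas SJL overlaps KS for the wing and basal lists. Such a mean can be set by few members, here Muc1 (-2.84) and Muc4 (-2.60), Krt15 (-6.70) and Ngfr (-2.09). The median differences were -0.09 for the superficial, -0.12 for the limbal and conjunctival and -0.10 for the nerve list. The SJL and KS arrays also did not overlap in 35.4% of single genes.

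Sphingolipid and eicosanoid metabolism had lower members in SJL and no higher ones. Of 20 tested members 6 were lower (30% against 14.8% of all genes called), and the same 6 kept their calls in all 9 fits. The median of the list was -0.08, and the other 14 members were not called. Of the 20 tested, 8 had an unadjusted limma p under 0.05, the 6 called ones included. Cers6, a ceramide synthase, was at 2355, 2209 and 2299 in KS and 835, 486 and 899.5 in SJL (-1.66 ± 0.21, adjusted p = 0.000907). Asah2, the neutral ceramidase, had 518, 567 and 529 in KS against 225, 173 and 230.2 in SJL (-1.33 ± 0.13, adjusted p = 0.000255). The other tested probe set of Asah2 was not called (-0.05, adjusted p = 0.888). Alox12, a 12-lipoxygenase that acts on arachidonic acid, read 1889, 2009 and 2164 on the KS arrays and 987, 1127 and 1137 on the SJL arrays (-0.89 ± 0.14, adjusted p = 0.00361), and its other tested probe set was lower too.

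Asah1, the acid ceramidase of lysosomes, was lower by less (-0.48 ± 0.09, adjusted p = 0.00707). Sgms2, a sphingomyelin synthase, was lower (-0.76 ± 0.14, adjusted p = 0.00808), with a second probe set called in the opposite direction. Pla2g4a, the phospholipase that releases arachidonic acid, was at 1480, 1259 and 1309 in KS and 752, 945 and 748 in SJL (-0.73 ± 0.13, adjusted p = 0.00535). Enzymes that make and that break down ceramide were therefore both among the lower genes. In B6, Cers6 read 2255, 2063 and 2192, within or just below the KS range, and Pla2g4a 1773, 1599 and 1937, above it.

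Cytokine and chemokine genes were more often higher in SJL, with 6 higher and 2 lower of 23 tested, 34.8% called against 14.8% of all genes. All 6 higher genes and 1 of the lower ones kept their calls. Ccl28 passed the filter only through its SJL arrays, so it entered this count because it was high there. Ccl28, a chemokine of mucosal epithelia, was at the lower end of the scale in KS and B6 and had 4.86, 4.77 and 4.81 in KS against 1284, 1814 and 1088 in SJL (6.54 ± 0.16, adjusted p = 6.31e-08). Cx3cl1, the membrane-bound chemokine fractalkine, read 181, 135 and 178 on the KS arrays and 625, 580.3 and 670.1 on the SJL arrays (1.87 ± 0.15, adjusted p = 8.58e-05). Cxcl14, an epithelial chemokine, was at 70.2, 66.2 and 70.2 in KS and 230.3, 531 and 330.4 in SJL (2.17 ± 0.30, adjusted p = 0.00159). The SJL arrays stood above every KS and every B6 array for these 3 genes.

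Tslp, an epithelial cytokine that acts on dendritic cells, had 51.9, 52.1 and 88.8 in KS against 254, 250 and 207 in SJL (1.76 ± 0.23, adjusted p = 0.00127). Ccl27a, a chemokine of skin epithelium, was higher as well (0.96 ± 0.15, adjusted p = 0.00336). Il6ra, the interleukin-6 receptor, read 13.5, 22.9 and 13.3 in KS, 58.5, 68.8 and 118 in SJL and 68, 87.7 and 86 in B6 (1.76 ± 0.24, adjusted p = 0.00168), so B6 stood with SJL. Il1rn, the secreted antagonist of the interleukin-1 receptor, was the member with the largest fall and read 639.7, 632 and 745 on the KS arrays and 102, 73.2 and 73.9 on the SJL arrays (-2.89 ± 0.13, adjusted p = 2.17e-06). Its B6 arrays, at 352, 351 and 352, lay between the other strains, and its second tested probe set was lower too. Cxcl16 was lower (-0.99 ± 0.21, adjusted p = 0.0141) and lost its call without KS 2 (adjusted p = 0.0576).

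Proteases and protease inhibitors outside the matrix lists had 6 higher and 2 lower members of 29 (27.6% against 14.8% of all genes), and 7 of those 8 calls were kept. Plat, tissue plasminogen activator, was at 196, 188 and 203 in KS and 984, 1214 and 850.3 in SJL (2.30 ± 0.21, adjusted p = 0.00014), with its other tested probe set also higher. Klk8, a kallikrein of stratified epithelia, had 25.3, 13.7 and 15.5 in KS against 119.5, 289 and 232 in SJL (2.93 ± 0.29, adjusted p = 0.000249). Spink5, an inhibitor of epidermal kallikreins, read 662, 674 and 407 on the KS arrays and 1407, 1790 and 1284 on the SJL arrays (1.37 ± 0.25, adjusted p = 0.00641). The kallikrein Klk11 (0.59 ± 0.10, adjusted p = 0.00406) and the serpin Serpinb8 (0.67 ± 0.10, adjusted p = 0.00228) were higher and kept their calls, and Klk10 was higher (0.72 ± 0.17, adjusted p = 0.0244) with a call lost without KS 2, KS 3, SJL 2 or SJL 3 (adjusted p 0.0704 to 0.091). Serpinb1a, an inhibitor of neutrophil proteases, was lower (-0.72 ± 0.14, adjusted p = 0.00883), as was Serping1 above. Serpinb8 had a second probe set called in the opposite direction. A protease and an inhibitor of its class thus rose together in the kallikrein group.

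Genes that build mucin-type, sialylated and fucosylated glycans were lower in 5 of 23 cases and higher in 1, a share of 26.1% against 14.8% of all genes. Mgat4a, which adds a branch to N-glycans, was at 3160, 2846 and 2667 in KS and 845, 696 and 661 in SJL (-1.97 ± 0.12, adjusted p = 1.5e-05). C1galt1, which makes the core 1 structure of mucin-type O-glycans, had 94.2, 67.5 and 68.3 in KS against 23.5, 14.3 and 11.5 in SJL (-1.72 ± 0.18, adjusted p = 0.000385). Each had a second probe set called in the same direction. St6galnac1, which sialylates O-glycans, was bright and read 9844, 9512 and 9752 on the KS arrays and 6156, 5767 and 6249 on the SJL arrays (-0.68 ± 0.08, adjusted p = 0.000745). Galnt1, which starts O-glycosylation, was lower too (-0.56 ± 0.08, adjusted p = 0.00186).

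Mgat4a, C1galt1, St6galnac1 and Galnt1 kept their calls. St6galnac2 was lower (-0.40 ± 0.09, adjusted p = 0.0192), lost without KS 2 or KS 3 (adjusted p 0.0548 to 0.0766), and Galnt10 was higher (1.22 ± 0.34, adjusted p = 0.046), lost without KS 1, KS 2, KS 3, SJL 1, SJL 2 or SJL 3 (adjusted p 0.074 to 0.128). In this list B6 lay with SJL for Mgat4a (1046, 961 and 1127) and at or above KS for St6galnac1 (10256, 9964 and 11165). B3galt6, which builds the linker by which glycosaminoglycans attach to proteins and which no list holds, was at 868, 909.5 and 861 in KS and 15.1, 9.19 and 9.75 in SJL (-5.39 ± 0.12, adjusted p = 4.17e-08). Its other tested probe set was lower as well, and the B6 arrays were as bright as KS.

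**Figure D4:**
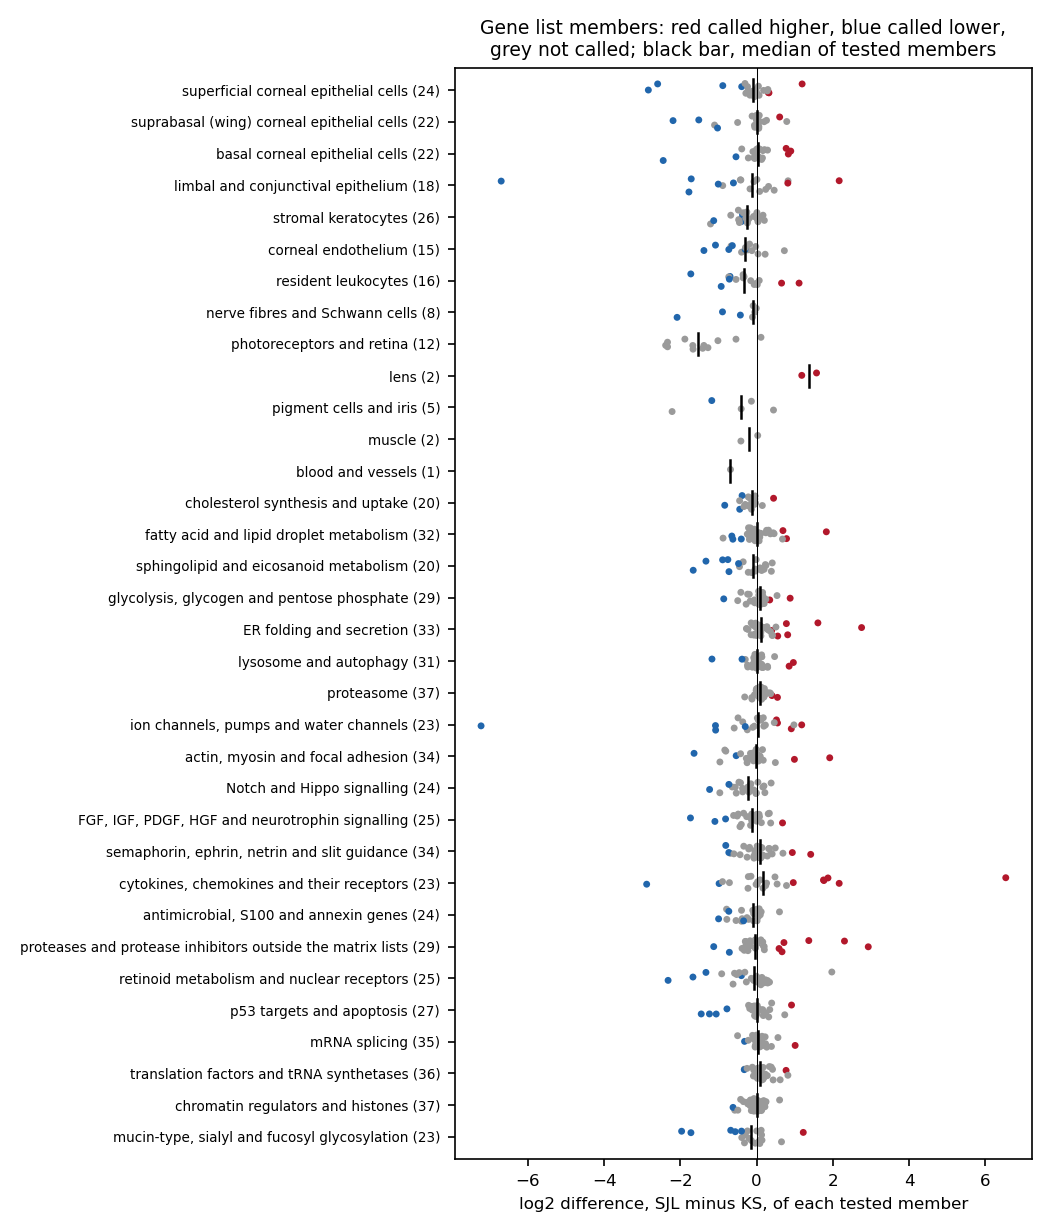
Each row is a gene list with its number of tested members in brackets, each point a member at its log2 difference of SJL minus KS, and the black bar the median. Most members of most lists are grey and close to 0, and the called members sit in the tails, on the low side for sphingolipid genes and mostly on the high side for cytokine genes.

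Endoplasmic reticulum folding genes had 6 higher and 0 lower members of 33, a share of 18.2% near the 14.8% of all genes, and 1 of the 6 kept its call. Ero1a, the oxidase that recharges protein disulfide isomerase, had 808, 963 and 931 in KS against 5768, 6369 and 6213 in SJL (2.75 ± 0.13, adjusted p = 2.32e-06). Both other tested probe sets of Ero1a were higher too, and B6, at 888, 975 and 1192, stood with KS. Hspa5, the chaperone BiP, read 6303, 6351 and 6653 on the KS arrays and 7852, 8716 and 8820 on the SJL arrays (0.39 ± 0.08, adjusted p = 0.013), and lost its call without KS 2 or SJL 3 (adjusted p 0.0511 to 0.0534). Trib3 (1.61 ± 0.36, adjusted p = 0.0172), Pdia4 (0.81 ± 0.21, adjusted p = 0.0338), Sdf2l1 (0.78 ± 0.21, adjusted p = 0.0407) and Atf6 (0.55 ± 0.16, adjusted p = 0.0474) were higher and lost their calls without 4 to 8 of the arrays. A second probe set of Atf6 was called lower (-0.78, adjusted p = 0.00116). The folding genes called numbered 1 without SJL 3 and 3 without B6 1, B6 2, KS 1, KS 2, KS 3 or SJL 2. The median of the list was 0.11.

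Genes of p53 targets and apoptosis had 4 lower members and 1 higher of 27, a share of 18.5% near the 14.8% of all genes. Bid, a BH3-only protein of the death receptor pathway, was at 619, 551 and 528 in KS and 223, 222 and 259 in SJL (-1.24 ± 0.15, adjusted p = 0.000708). Gadd45b, a stress-induced protein, had 1911, 1868 and 1386 in KS against 789.7, 693 and 977 in SJL (-1.06 ± 0.19, adjusted p = 0.00643), and both its other probe sets were lower. Casp6 was lower (-0.78 ± 0.13, adjusted p = 0.00531), and Sesn2, a stress-induced regulator of growth signalling, was higher (0.92 ± 0.14, adjusted p = 0.00318). These 4 kept their calls. Casp14, the caspase of cornifying epithelia, was dim and lower (-1.45 ± 0.32, adjusted p = 0.0155), lost without KS 1 or KS 2 (adjusted p 0.0582 to 0.0584).

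Of 25 retinoid and nuclear receptor genes 4 were lower and 0 higher, a share of 16% near the 14.8% of all genes. Aldh1a7, an aldehyde dehydrogenase close to Aldh1a1, read 171, 171 and 124 on the KS arrays and 12.4, 43.7 and 19.1 on the SJL arrays (-2.32 ± 0.34, adjusted p = 0.00239). Signal of such close copies can mix on an array. Fkbp5, a chaperone induced by glucocorticoids, was at 309, 497 and 249 in KS and 87.1, 138 and 80.1 in SJL (-1.67 ± 0.31, adjusted p = 0.00698). Esr1, the oestrogen receptor alpha, was lower (-1.33 ± 0.15, adjusted p = 0.000656), and those 3 kept their calls.

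Growth factor, guidance and cytoskeletal lists had few calls in both directions. Of 25 growth factor and neurotrophin genes 3 were lower and 1 higher (16%, near the 14.8% of all genes). Igfbp7, a secreted insulin-like growth factor binding protein, was at 1313, 1655 and 1254 in KS and 475, 582 and 252 in SJL (-1.74 ± 0.28, adjusted p = 0.00411). Ntrk2, the receptor of brain-derived neurotrophic factor, was at 2090, 2798 and 2515 in KS and 1066, 1081 and 1291 in SJL (-1.10 ± 0.14, adjusted p = 0.00119). Igfbp7 and Ntrk2 kept their calls, but neither of the 2 other tested probe sets of Ntrk2 was called. Fgf1 was lower (-0.82 ± 0.23, adjusted p = 0.044), lost without B6 1, B6 3, KS 1, KS 2, SJL 2 or SJL 3 (adjusted p 0.0559 to 0.149), and Igfbp5 was higher (0.68 ± 0.18, adjusted p = 0.036), lost without B6 1, B6 3, KS 2, KS 3, SJL 1 or SJL 3 (adjusted p 0.0504 to 0.128). The called growth factor genes numbered 2 without B6 1 or KS 2.

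Guidance genes numbered 2 higher and 2 lower of 34 (11.8% against 14.8% of all genes). Sema3d (1.42 ± 0.24, adjusted p = 0.0043) and Sema3a (0.94 ± 0.15, adjusted p = 0.00349), secreted semaphorins that repel axons, were higher, and Nrp1, the neuropilin to which Sema3a binds, was lower and had 1510, 1159 and 1110 in KS against 817, 699 and 620.5 in SJL (-0.81 ± 0.16, adjusted p = 0.0114). These 3 kept their calls, and both other probe sets of Nrp1 were lower. Sema3a itself was at 122, 113 and 143 in KS and 269.8, 231 and 246 in SJL. A ligand and its receptor thus moved in opposite directions.

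Actin and adhesion genes had 2 higher and 2 lower members of 34 (11.8% against 14.8% of all genes). Fscn1, fascin, which bundles actin filaments, read 2476, 2270 and 2319 on the KS arrays and 9467, 8690 and 8616 on the SJL arrays (1.92 ± 0.15, adjusted p = 6.67e-05), with its other tested probe set higher. Myh10, a non-muscle myosin, was higher (0.99 ± 0.17, adjusted p = 0.00588), and Myl9, a myosin light chain of contractile cells, was lower (-1.64 ± 0.25, adjusted p = 0.00273). The 3 kept their calls, and Tpm1 was lower (-0.54 ± 0.11, adjusted p = 0.014), lost without KS 2 or SJL 3 (adjusted p 0.0553 to 0.0558). B6 read 4082, 3444 and 5337 for Fscn1, between the other strains.

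Ion and water channel genes split evenly, with 4 higher and 4 lower of 23 (34.8% against 14.8% of all genes), of which 1 and 2 kept their calls. Piezo2, a mechanically gated channel, read 7078, 6807 and 6744 in KS and 19.5, 21.1 and 95.1 in SJL. It is represented by 1 tested probe set. Trpv4, a calcium channel opened by osmotic and mechanical stimuli, was dim and was at 41.4, 50.9 and 34 in KS and 104, 87 and 135 in SJL (1.18 ± 0.20, adjusted p = 0.00472). Kcnk6, Clca2 and Atp2c1 were higher (0.91, 0.55 and 0.52) and Scnn1a was lower (-1.08), with calls lost without 1 to 5 of the arrays. Of the other probe sets of Atp2c1, 1 was called lower (-2.49, adjusted p = 4.45e-05) and 1 higher (1.43, adjusted p = 0.00262). The channel genes called numbered 4 without KS 1, KS 3 or SJL 3 and 5 without KS 2. Notch and Hippo genes had 2 lower of 24 (8.33% against 14.8% of all genes), Hey1 (-1.23 ± 0.27, adjusted p = 0.0166) and Ccn1 (-0.73 ± 0.12, adjusted p = 0.00376), and Ccn1 kept its call. The called Notch and Hippo genes numbered 1 without KS 1, KS 2 or SJL 2 and 6 without SJL 1.

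Lipid and sugar metabolism genes were called in both directions. Lpin1, a phosphatidate phosphatase, had 64.8, 77 and 108 in KS against 329.7, 277 and 343 in SJL (1.83 ± 0.19, adjusted p = 0.000291), and Dgat2, which makes triglycerides, read 2112, 2203 and 1778 on the KS arrays and 3323, 3590 and 3565 on the SJL arrays (0.78 ± 0.13, adjusted p = 0.00389). Scd1, the stearoyl-CoA desaturase, was lower (-0.65 ± 0.09, adjusted p = 0.00175). These 3 of the 6 called fatty acid genes (of 32 tested, 18.8% against 14.8% of all genes) kept their calls, and the other tested probe set of Lpin1 was not called. Fasn was higher (0.69 ± 0.16, adjusted p = 0.0212), lost without KS 1, KS 2, KS 3, SJL 2 or SJL 3 (adjusted p 0.0523 to 0.0697). The fatty acid genes called numbered 3 without KS 2 or KS 3.

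Cholesterol genes numbered 3 lower and 1 higher of 20 (20% against 14.8% of all genes), and none kept its call. Pmvk was lower (-0.84 ± 0.17, adjusted p = 0.0127), lost without KS 2 (adjusted p = 0.0537), Fdps was lower (-0.44 ± 0.10, adjusted p = 0.0164), lost without KS 2 (adjusted p = 0.0656), Insig1, which retains the sterol sensor in the endoplasmic reticulum, was lower (-0.38 ± 0.10, adjusted p = 0.0329), lost without KS 1, KS 2, KS 3, SJL 1, SJL 2 or SJL 3 (adjusted p 0.0611 to 0.105), and Tm7sf2 was higher (0.44 ± 0.11, adjusted p = 0.0311), lost without KS 1, KS 3, SJL 2 or SJL 3 (adjusted p 0.0749 to 0.111). The called cholesterol genes numbered 1 without KS 2 and 2 without KS 1, KS 3, SJL 2 or SJL 3. In carbohydrate metabolism 3 of 29 were called (10.3% against 14.8% of all genes). Pygl, which breaks down glycogen, was at 2653, 2419 and 2440 in KS and 4195, 4820 and 4844 in SJL (0.88 ± 0.10, adjusted p = 0.000454), and Gbe1, which branches glycogen, had 686, 714 and 721 in KS against 344, 429.5 and 384 in SJL (-0.86 ± 0.11, adjusted p = 0.00115). Both kept their calls.

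Lysosome and antimicrobial lists were near or below the 14.8% of all genes called. Of 31 lysosome and autophagy genes 2 were higher and 2 lower (12.9%). Npc1, which moves cholesterol out of lysosomes, read 649, 716 and 722 on the KS arrays and 1206, 1168 and 1430 on the SJL arrays (0.85 ± 0.10, adjusted p = 0.000738), and Gaa, the acid alpha-glucosidase, was at 317, 268 and 289 in KS and 87.5, 175 and 122 in SJL (-1.17 ± 0.24, adjusted p = 0.013), and both kept their calls. Ctss was higher (0.96 ± 0.22, adjusted p = 0.0197), lost without KS 2, KS 3, SJL 1 or SJL 3 (adjusted p 0.0545 to 0.0732). The lysosome genes called numbered 2 without KS 2, KS 3 or SJL 3. Of 24 antimicrobial, S100 and annexin genes 3 were lower (12.5%), Defb1, which kept its call, Anxa3 (-0.998 ± 0.29, adjusted p = 0.0496), lost without B6 3, KS 1, KS 2, KS 3, SJL 1, SJL 2 or SJL 3 (adjusted p 0.051 to 0.157), and Anxa5 (-0.34 ± 0.07, adjusted p = 0.0132), lost without KS 2 (adjusted p = 0.0511). The called antimicrobial genes numbered 1 without KS 2.

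Housekeeping machinery had few called members. The share was 5.41% of 37 proteasome genes, 5.71% of 35 splicing genes, 5.56% of 36 translation genes and 2.7% of 37 chromatin genes, against 14.8% of all genes. The 2 proteasome genes called, Psmb10 (0.55 ± 0.12, adjusted p = 0.0177) and Psmb9 (0.40 ± 0.09, adjusted p = 0.0207), are subunits of the interferon-inducible immunoproteasome, and both lost their calls without 3 or 4 of the arrays. The proteasome genes called numbered 0 without KS 1 or SJL 3 and 1 without KS 2, KS 3 or SJL 2. Smarca2, an ATPase of chromatin remodelling complexes, was lower (-0.62 ± 0.10, adjusted p = 0.00289) and kept its call. The called chromatin genes numbered 3 without SJL 1. Hnrnpl (1.01 ± 0.28, adjusted p = 0.0446), Srsf6 (-0.32 ± 0.08, adjusted p = 0.0233), Iars (0.77 ± 0.19, adjusted p = 0.0246) and Eif5 (-0.32 ± 0.09, adjusted p = 0.0407) were called and not kept. The splicing genes called numbered 0 without KS 1 or KS 2 and 1 without B6 2, KS 3, SJL 2 or SJL 3. The called translation genes numbered 0 without KS 1, KS 2, KS 3, SJL 2 or SJL 3, 1 without B6 1 or B6 2 and 8 without SJL 1.

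Across the 34 lists together, 130 of 760 tested genes were called (17.1%), 53 higher and 77 lower, close to the 14.8% of all genes.

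Genes whose every tested probe set moved the same way give a view that rests on more than 1 set of probes. Of the called genes, 201 had at least 2 tested probe sets, all called in the same direction, and the 12 highest and 12 lowest of them all kept their calls. Ceacam10, a secreted relative of carcinoembryonic antigen, had 4.57, 4.78 and 4.74 in KS against 1933, 2765 and 2235 in SJL (7.29 ± 0.18, adjusted p = 6.31e-08). Like Ccl28, Ceacam10 passed the filter only through its SJL arrays. Cyp24a1, the enzyme that inactivates vitamin D, read 178, 114 and 287 on the KS arrays and 2303, 1731 and 2158 on the SJL arrays (3.43 ± 0.30, adjusted p = 0.000131). Cd55, which protects cells from complement, was at 213, 158 and 165 in KS and 929, 1132 and 1052 in SJL (2.48 ± 0.23, adjusted p = 0.000167). SJL stood above both other strains for these genes, with B6 at 8.89, 5.88 and 15.2 for Ceacam10, 760.3, 526 and 804 for Cyp24a1 and 53.7, 48.5 and 24.4 for Cd55.

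Gch1, which makes the first intermediate of tetrahydrobiopterin, had 21.2, 33.3 and 22.9 in KS against 198, 206 and 159 in SJL (2.47 ± 0.32, adjusted p = 0.00111). Cfap43, a protein of cilia and flagella, was higher (3.14 ± 0.23, adjusted p = 4.52e-05), as were Nat8f4, an acetyltransferase of the Nat8 family (2.67 ± 0.22, adjusted p = 7.87e-05), and Ptar1, a prenyltransferase subunit (2.23 ± 0.18, adjusted p = 7.02e-05). The other higher genes of the 12 were Ccl28, Gbp7, Gbp2, Ero1a and Plat. Each of the 12 was higher on all 3 SJL arrays, as the rule that chose these genes required.

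Among the 12 lowest genes, Fmod, fibromodulin of the stroma, was at 261, 459.8 and 627 in SJL and 4451, 7399 and 5871 in KS, and all 5 other probe sets were lower. H2-Ea, a class II chain, read 251, 158 and 200.4 on the KS arrays and 4.45, 4.44 and 4.46 on the SJL arrays (-3.86 ± 0.14, adjusted p = 7.64e-07), with B6 at 4.49, 4.4 and 4.39. Gpc6, a glypican of the cell surface, was at 759, 708 and 628 in KS and 146, 89.4 and 67.5 in SJL (-2.73 ± 0.25, adjusted p = 0.000145). B6 lay with SJL for H2-Ea and for Gpc6 (87.7, 72.4 and 109), and H2-Ea passed the filter only through its KS arrays.

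Upk3b, a uroplakin, had 705, 593 and 493 in KS against 54.3, 87.1 and 160.3 in SJL (-2.56 ± 0.31, adjusted p = 0.000791). Me1, the cytosolic malic enzyme that supplies NADPH, read 229.7, 155 and 173 on the KS arrays and 25.2, 42.3 and 25.6 on the SJL arrays (-2.26 ± 0.26, adjusted p = 0.000571). Lipg, endothelial lipase, was lower (-2.50 ± 0.37, adjusted p = 0.00235), and so were Lypd6, a Ly6-type regulator of Wnt signalling (-3.40 ± 0.10, adjusted p = 1.55e-07), and Tmie, a part of the transduction channel of hair cells (-3.17 ± 0.18, adjusted p = 9.94e-06). Necab1, a neuronal calcium-binding protein (-3.35 ± 0.20, adjusted p = 1.49e-05), and Phyhipl (-3.17 ± 0.18, adjusted p = 9.51e-06) completed the group together with B3galt6 and Il1rn. For Upk3b, Me1 and Tmie the B6 means lay between those of KS and SJL.

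The 8 brightest called genes in each direction, by mean intensity over the KS and SJL arrays, differed by less than 2-fold, which does not hold for all bright genes, Krt13 among them. Of the higher ones, Ifi202b, an interferon-inducible nuclear protein, was at 7268, 6089 and 6256 in KS and 10477, 11756 and 11007 in SJL (0.76 ± 0.10, adjusted p = 0.00126) and kept its call. Apod, a lipocalin, was higher by its brightest probe set (0.51 ± 0.12, adjusted p = 0.0189), but its other tested probe set was called in the opposite direction. Cdk2ap1 (0.42 ± 0.09, adjusted p = 0.0157), Odc1, the first enzyme of polyamine synthesis (0.37 ± 0.10, adjusted p = 0.0347), Prom1 (0.25 ± 0.07, adjusted p = 0.0487) and Ppp2ca (0.31 ± 0.08, adjusted p = 0.0387) were higher, Ppp2ca with another probe set called lower, and the calls of those 4 and of Apod were each lost without 2 to 9 of the arrays.

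Of the bright lower genes, Gnb1, a G protein subunit, had 14952, 15333 and 16109 in KS against 10341, 9252 and 10004 in SJL (-0.65 ± 0.08, adjusted p = 0.00106), and Gsta2, a glutathione transferase, read 15404, 15078 and 14334 on the KS arrays and 10099, 11090 and 9746 on the SJL arrays (-0.54 ± 0.09, adjusted p = 0.00515). Gnb1, Gsta2 and Psca kept their calls, although a second probe set of Gnb1 was called in the opposite direction. Glul, glutamine synthetase (-0.36 ± 0.08, adjusted p = 0.0164), Glo1, glyoxalase (-0.37 ± 0.08, adjusted p = 0.017), and Hcfc1r1 (-0.52 ± 0.11, adjusted p = 0.0157) were lower and lost their calls without 2 or 3 of the arrays. B6 was below SJL for Glo1 (7413, 6969 and 6555) and above KS for Glul (19165, 19416 and 19314).

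Gene families named by symbol were called at rates from 4.76% to 39.1%. The 3 largest families lay near the 14.8% of all genes. Of 263 zinc finger genes 16% were called, of 180 solute carriers 15% and of 142 Tmem genes 17.6%, each with similar numbers higher and lower (22 and 20, 13 and 14, and 14 and 11). Of the zinc finger genes 27 were called without KS 2 or SJL 3 and 23 without KS 3, and of the Tmem genes 16 without KS 2. Tmem87a, a Golgi membrane protein, was at 158, 183 and 199 in KS and 6648, 5588 and 6307 in SJL (5.03 ± 0.24, adjusted p = 2.81e-06). Tmem45b had 19.5, 18.9 and 11 in KS against 1695, 1295 and 1545 in SJL (5.85 ± 0.21, adjusted p = 5.01e-07). Zfp979, a zinc finger gene, was 5.78, 5.5 and 5.35 in KS, 253, 287 and 266 in SJL and 5.82, 5.38 and 5.61 in B6, and Zfp874a ran the other way (-3.26 ± 0.25, adjusted p = 5.69e-05). These 4 genes had no second tested probe set, and Zfp979 passed the filter only through its SJL arrays. Rps and Rpl symbols, mostly of ribosomal proteins, were called in 5.88% of 51 cases, and Nduf symbols of complex I in 4.76% of 42. The called Rps and Rpl symbols include Rps6kc1, which does not encode a ribosomal protein. Rab GTPases (8.16% of 49) and mitochondrial ribosomal proteins (9.21% of 76) were also below 14.8%, with Rab2b (1.28 ± 0.16, adjusted p = 0.00105) and Rab31 (0.96 ± 0.14, adjusted p = 0.00213) higher and Mrpl33 lower (-0.68 ± 0.08, adjusted p = 0.000792). Called members numbered 1 of 14 vacuolar proton pump genes (7.14%), 1 of 14 Gpr genes (7.14%) and 1 of 11 Adam genes (9.09%). They numbered 3 of 16 integrins (18.8%), 3 of 11 serpins (27.3%) and 3 of 8 claudins (37.5%), against 14.8% of all genes. Adamts18 was the called Adam gene (-2.55 ± 0.27, adjusted p = 0.000353).

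Cytochrome P450 genes had 9 called of 23 tested (39.1% against 14.8% of all genes), 6 higher and 3 lower, with 5 kept. The array holds 72 of them, and Cyp17a1 passed the filter only through its SJL arrays. Cyp17a1, a steroid hydroxylase, read 5.07, 5.09 and 5.03 on the KS arrays and 158, 132 and 151 on the SJL arrays (3.38 ± 0.09, adjusted p = 6.39e-08), with B6 at 4.95, 4.84 and 4.83. Cyp2j9 was higher (1.06 ± 0.15, adjusted p = 0.0017), and Cyp27a1, a sterol hydroxylase (-0.90 ± 0.14, adjusted p = 0.00301), and Cyp3a13 (-0.79 ± 0.12, adjusted p = 0.00309) were lower. The number called was 5 without KS 2, KS 3 or SJL 3. Of 8 tested protocadherins (35 on the array) 3 were called (37.5% against 14.8% of all genes), and all 3 were higher and kept their calls. They were Pcdh8 (2.59 ± 0.20, adjusted p = 7.02e-05), Pcdh7 (1.23 ± 0.16, adjusted p = 0.00117) and Pcdh20 (1.05 ± 0.16, adjusted p = 0.00281), and 2 others were called lower without B6 2. Pcdh8 passed the filter only through its SJL arrays.

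Potassium channels went both ways. Kcnc2 was at 623, 458 and 468 in KS and 2029, 1345 and 1848 in SJL (1.73 ± 0.21, adjusted p = 0.000749). Kcnh1 was lower (-2.17 ± 0.28, adjusted p = 0.00127), as was Kcnd3 (-1.47 ± 0.28, adjusted p = 0.0087), and all 3 kept their calls. Genes with Usp symbols had 6 lower and 1 higher of 44 (15.9%, near the 14.8% of all genes), with Usp36 the lowest (-1.84 ± 0.16, adjusted p = 0.000131). The lower Usp6nl has such a symbol but is not a ubiquitin-specific protease. The called genes of this family numbered 3 without KS 2 and 4 without KS 1, KS 3, SJL 2 or SJL 3. Tyrosine phosphatases were split, with Ptpru higher (2.28 ± 0.13, adjusted p = 1.18e-05) and Ptpn21 lower (-2.35 ± 0.24, adjusted p = 0.000333). Ptpru passed the filter only through its SJL arrays.

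The interferon-inducible GTPase genes Gbp7 and Gbp2 were higher in SJL, and tripartite motif genes showed wide gaps in both directions. Interferon-inducible GTPases were not counted as a group here. Guanylate-binding proteins are induced by interferon and act against pathogens inside cells, and several Trim proteins restrict viruses. Gbp7 had 11.3, 10.1 and 6.76 in KS against 1653, 999 and 1366 in SJL (6.10 ± 0.20, adjusted p = 2.97e-07), and Gbp2 read 141, 123 and 121 on the KS arrays and 896, 893 and 1052 on the SJL arrays (2.79 ± 0.14, adjusted p = 5.53e-06). B6 was as high as SJL or higher, at 2656, 2038 and 2061 for Gbp7 and 1454, 1010 and 1299 for Gbp2, so KS was the low strain. Trim5 was at 495, 550 and 491 in KS and 1792, 1323 and 1654 in SJL (1.61 ± 0.13, adjusted p = 7.87e-05). Trim12a had 949.8, 1072 and 969 in KS against 4.24, 4.29 and 4.17 in SJL (-6.14 ± 0.09, adjusted p = 4e-09), with B6 at 1542, 1305 and 1502. Of 37 Trim genes 7 were higher and 3 lower (27% against 14.8% of all genes), and 5 and 3 of them kept their calls, the latter being Trim12a, Trim12c and Trim68 (-2.56).

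The promoters of Gbp7, Gbp2, Trim5 and Trim12a are printed because these genes changed by much and each holds the interferon-type element, GAAA and GAAA with any 2 bases between them, here in capitals in its reverse form of TTTC and TTTC with 2 bases between. The sequences are from RefSeq with the build GRCm38.p6, run 5′ to 3′ on the gene's strand and span 250 bases before to 50 after the start. They lie at chr3:142530086-142530385 (plus strand), chr3:142620413-142620712 (plus strand), chr7:104288057-104288356 (minus strand) and chr7:104315446-104315745 (minus strand) in that order.
Gbp7: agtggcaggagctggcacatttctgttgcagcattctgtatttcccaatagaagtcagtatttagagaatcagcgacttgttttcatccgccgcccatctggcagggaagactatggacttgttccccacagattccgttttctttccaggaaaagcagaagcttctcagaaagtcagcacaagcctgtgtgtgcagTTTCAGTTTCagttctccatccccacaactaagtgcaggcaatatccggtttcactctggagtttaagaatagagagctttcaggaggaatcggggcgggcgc
Gbp2: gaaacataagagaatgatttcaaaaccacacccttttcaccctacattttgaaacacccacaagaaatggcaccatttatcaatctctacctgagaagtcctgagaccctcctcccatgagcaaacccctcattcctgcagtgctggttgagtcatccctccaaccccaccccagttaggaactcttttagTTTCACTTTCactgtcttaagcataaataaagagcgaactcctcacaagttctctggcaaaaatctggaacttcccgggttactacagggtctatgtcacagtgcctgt
Trim5: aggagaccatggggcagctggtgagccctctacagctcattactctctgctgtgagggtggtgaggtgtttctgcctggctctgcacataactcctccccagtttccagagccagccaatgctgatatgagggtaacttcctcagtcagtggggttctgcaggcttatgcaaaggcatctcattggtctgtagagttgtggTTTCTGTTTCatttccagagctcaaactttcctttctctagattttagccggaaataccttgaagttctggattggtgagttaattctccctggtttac
Trim12a: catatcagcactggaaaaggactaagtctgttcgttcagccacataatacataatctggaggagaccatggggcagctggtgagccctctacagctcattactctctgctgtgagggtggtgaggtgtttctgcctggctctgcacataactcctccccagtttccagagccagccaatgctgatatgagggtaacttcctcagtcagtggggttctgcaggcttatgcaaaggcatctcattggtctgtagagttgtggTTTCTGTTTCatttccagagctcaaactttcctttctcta

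The Trim5 and Trim12a windows share an identical stretch of 241 bases that includes the element. Trim5 was higher and Trim12a lower in SJL. The windows are those of the reference build, and the SJL and KS sequences were not examined. Trim12a and Trim12c, whose windows have 248 identical bases when aligned, were both lower. Such near copies can share probes, so the signal of single Trim genes in this cluster is uncertain. The first base of the element lay 53 bases before the start in Gbp7, 59 in Gbp2 and 49 in Trim5, and 10 after it in Trim12a.

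Over all genes the element was in a small share of promoters. A promoter was found for 8912 of the 10956 tested genes, and the interferon-type element was present on either strand in 3.61% of them, in 5.38% of the 595 higher genes (32) and in 4.2% of the 691 lower genes (29). The AP-1 element TGAGTCA was in 4.56% of all, 5.04% of higher and 5.21% of lower promoters. TATAAA was in 8.57%, 8.4% and 11.9%, the E-box CACGTG in 11.8%, 8.91% and 8.97%, and CCAAT in 42.9%, 43.2% and 42.4%. GGGCGG, the GC box, was in 70.1% of all, 65.7% of higher and 62.8% of lower promoters, and in 55.1% of those at least 2-fold higher and of those at least 2-fold lower. In promoters of genes at least 2-fold higher and at least 2-fold lower, the interferon-type element was in 6.06% and 5.41%. The AP-1 element was in 6.06% and 6.08% of them, TATAAA in 10.1% and 13.2%, the E-box in 5.56% and 9.8%, and CCAAT in 47% and 45.3%. A match is a description of these letters in this window.

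Further probe sets of a gene did not always repeat the call. Of the called genes, 654 had another tested probe set. In 301 of them (46%) at least 1 other probe set was called in the same direction, in 201 all were, in 298 none of the others was called, and in 70 another probe set was called in the opposite direction. Agreement was more frequent for larger differences, with 132 of 204 genes (64.7%) at 2-fold or more and 36 of 48 (75%) at 4-fold or more. Xaf1, an interferon-inducible gene, was higher by its brightest probe set (3.06 ± 0.28, adjusted p = 0.000158) and had 1 other tested probe set, called lower. Rpl14, a ribosomal protein, read 3022, 2878 and 2913 in KS, 844, 659 and 714 in SJL and 924, 1012 and 924 in B6 and had no second one. No other tested probe set was called for Bid, Cx3cl1, Esr1, Galnt1, Ocln, Ptpn21, Rab31, Scd1, Sema3a, Serpinb1a, Smarca2, Sox9, St6galnac1, Tpm1 or Usp36. Whether sequence differences between the strains under the probes contribute was not tested.

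**Figure D5:**
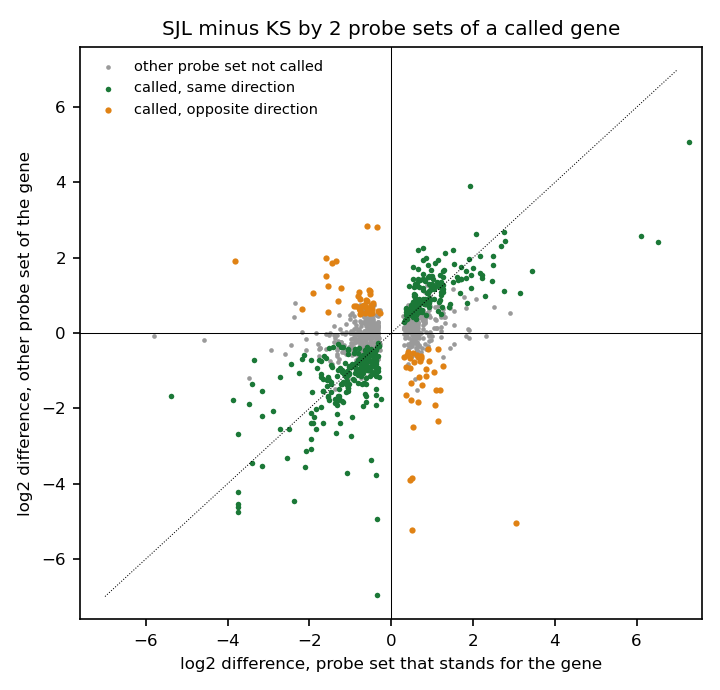
Each point is another tested probe set of a called gene, with the log2 difference (SJL minus KS) of the probe set that stands for the gene on the x axis and its own on the y axis, and the dotted line marks equality. Green points, called in the same direction, follow the line, and orange points, called in the opposite direction, belong to 70 of the 654 genes.

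Some genes were bright in 1 strain and dim in the other. In 12 genes all 3 SJL arrays were above an intensity of 128 and all 3 KS arrays below 16, and in 16 genes the reverse held. Nxpe4 read 3252, 3098 and 3574 in SJL and 15.1, 7.13 and 6.86 in KS. Adh6a, an alcohol dehydrogenase, read 691, 611 and 658 and 10.2, 10.1 and 9.86, and Pgm5, a relative of phosphoglucomutase found at adherens junctions, 374, 336 and 303 and 4.88, 6.73 and 4.3. B6 was bright for Adh6a (1036, 891 and 813) and Pgm5 (591, 399 and 624) and low for Nxpe4 (13.2, 6.98 and 27.4).

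Csn3, kappa-casein, read 427, 570.4 and 342 in SJL and 6.33, 5.26 and 7.71 in KS, and the chemokine-like Cxcl17 156, 149 and 140.5 and 4.13, 4.12 and 4.09. In the opposite direction, Apoc1, an apolipoprotein, read 1360, 1176 and 1440 in KS and 5.3, 8.34 and 8.21 in SJL, and Lgals7, a galectin of stratified epithelia, 642, 648 and 874 and 6.01, 7.81 and 7.75. Tfap2e, a transcription factor, read 174, 186 and 269 and 8.41, 9.75 and 12.8. These genes were picked with their values in view. B6 was bright in 3 of the 12 genes and in 12 of the 16, and dim in 6 and 2 of them. Of the 28, 7 had another tested probe set, and in 6 of those it was called in the same direction, Trim12c being the exception.

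B6 lay nearer to KS in most of these differences. Its mean was nearer to KS in 1116 of the 1625 called genes (68.7%) and nearer to SJL in 509, with 70.5% of the higher and 67.1% of the lower genes nearer to KS. In 996 genes (61.3%) the B6 mean lay between the other strains. B6 and KS are related strains. The B6 arrays entered the intensity filter, the choice of a gene's probe set and the shared estimate of spread.

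Called genes were spread over all chromosomes. The share called ranged from 8.07% on chromosome X and 9.75% on chromosome 8 to 18.5% on chromosome 17 and 19% on chromosome 1. Runs of at least 5 neighbouring tested genes that were all called occurred 3 times. On chromosome 7 the run was Plekhf1, Pop4, Zfp939, AI987944 and Zfp788, with Pop4, a subunit of ribonuclease P, at 2275, 2383 and 2351 in KS and 1047, 1125 and 1032 in SJL (-1.12 ± 0.08, adjusted p = 4.82e-05). On chromosome 10 it was Grip1, Helb, Irak3, Tmbim4 and Msrb3, with Irak3, an inhibitor of Toll-like receptor signalling, at 10.7, 10.6 and 9.25 in KS and 195, 52.9 and 118 in SJL (2.55 ± 0.38, adjusted p = 0.00235).

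The run on chromosome 11 was Cygb, Snhg16, St6galnac2, BC018473 and St6galnac1, in which the sialyltransferase St6galnac1 was the 1 gene that kept its call. Plekhf1, Pop4, Grip1, Irak3 and Tmbim4 kept theirs, and the other 9 genes of the runs lost them in at least 1 fit. Each run held genes of both directions, for example Grip1 higher (1.68 ± 0.14, adjusted p = 9.28e-05) and Msrb3 lower (-0.70 ± 0.16, adjusted p = 0.0201). In the chromosome 7 run AI987944 alone was higher (0.60 ± 0.15, adjusted p = 0.0294), lost without KS 2, KS 3, SJL 1, SJL 2 or SJL 3 (adjusted p 0.0527 to 0.101).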

How the data were processed

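The authors deposited 1 table of Affymetrix probe set intensity values on a linear scale. The deposited intensity values had upper quartiles of 379.6 to 396.3 over the 9 arrays, and how they were summarised and scaled is not stated in the labels or the file header. Control probe sets (64) were left out, and of the other 45037 probe sets 34945 had 1 symbol in the platform annotation. Values were taken as log2(intensity + 10). Probe sets with a mean below 4.17 log2 units, the median, were dropped, which left 22519. The 9 arrays entered a limma 3.58.1 fit (R 4.3.3) with a term for each of the 3 strains (8.41 moderated degrees of freedom), and p-values of SJL minus KS were adjusted by Benjamini-Hochberg over all 22519. An exact permutation test of 3 against 3 arrays cannot go below 0.1 and was not used. Errors after ± are SE of the log2 difference. The fit was tested on simulated data.

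Members, gene lists (34), symbol families (20) and tests were chosen with earlier results of these data known. Named genes were the 12 highest and 12 lowest whose tested probe sets were all called alike and whose SJL and KS arrays did not overlap. They also included the 8 brightest called in each direction, up to 3 called members per list (or the brightest) and 2 per family, and genes in runs of 5. Others named were chosen after their values were seen. Alternatives were other filters, normalizations, pseudocounts, probe set rules and designs, a replicate block, and each array left out.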

Additional observations from a re-analysis of the deposited data

How the results depend on the processing

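Across the 11 other settings the number of genes called ranged from 1144 with the filter at the 70th percentile (7957 genes tested) to 1765 with a gene's probe sets averaged, against 1625, and called genes of at least 2-fold numbered 284 with that filter against 622. The median difference of all genes stayed at or below 0.034. With arrays left out, calls ranged from 1048 to 1708, higher genes from 463 to 846, lower genes from 585 to 887 and called list members from 84 to 139. Precision is limited by 3 arrays per strain and, for dim probe sets, by the lower end of the scale.

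The replicate numbers do not pair the samples: deviations of same-numbered KS and SJL arrays correlated at 0.07, -0.09 and -0.025. With the replicate number as a block 1531 genes were called (713 higher, 818 lower), endothelial members numbered 3, translation members 1 and chromatin members 3, and 13 of the 167 named genes lost their call.

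Called members of a list changed by over 1.5 times as follows, and the cause was not tested. With no filter they numbered 3 basal, 3 endothelial, 1 nerve, 0 lens, 2 cholesterol, 2 folding, 2 lysosome, 1 Notch and Hippo, 2 growth factor and 1 splicing. With the filter at the 70th percentile, which tests fewer genes, they were 2 leukocyte, 0 lens, 0 pigment, 5 channel, 3 cytokine and 1 retinoid. With plain probe sets (no suffix for shared or mixed probes) they were 2 wing, 1 basal, 3 endothelial, 2 leukocyte and 1 lens. With the mean of all probe sets they were 7 keratocyte, 5 Notch and Hippo, 5 antimicrobial and 1 translation. With 6 arrays only they were 2 endothelial, 0 lens, 1 blood vessel, 3 folding, 2 growth factor and 1 translation. With the intensity trend they were 1 retina, 5 proteasome, 4 Notch and Hippo, 7 growth factor and 2 chromatin. Pseudocount 1 gave 2 pigment, pseudocount 50 gave 1 lens and median centring gave 1 translation. With arrays left out the ranges were superficial 4 to 7, basal 3 to 5, keratocyte 1 to 6, endothelial 2 to 5, nerve 1 to 3, retina 0 to 1, lens 0 to 2, pigment 1 to 2, muscle 0 to 1, blood vessel 0 to 1, cholesterol 1 to 4, fatty acid 3 to 7, folding 1 to 7, lysosome 2 to 5, proteasome 0 to 3, channel 4 to 9, Notch and Hippo 1 to 6, growth factor 2 to 4, antimicrobial 1 to 3, splicing 0 to 3, translation 0 to 8 and chromatin 1 to 3.

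Of 167 named genes 164 were called, 107 kept the call with each array left out, 111 in the other settings that tested them, and 99 in both. Direction reversed for Apod (-2.36), Ppp2ca (-0.12) and Gnb1 (0.005) with the mean of all probe sets, and for Lpin1 (-0.085) and Ptpn21 (0.81) with plain probe sets.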

Other observations

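Probe sets without a single gene symbol were called at a similar rate to those with one. Of 3126 such tested probe sets 502 were called (16.1%), against 15.5% of all 22519 tested probe sets, where 1571 were higher and 1918 lower in SJL. They are not described by gene here.

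Apod and Serpinb8 are examples of opposite calls within a gene, and whether such calls depend on brightness was not examined. Apod, a lipocalin, was higher by its brightest probe set (0.51) and lower by its second tested one (-5.24, adjusted p = 3e-07). Serpinb8, a serpin of epithelia, was higher by one (0.67) and lower by another (-1.82, adjusted p = 6.14e-06). Both were picked with their values in view, and sequence or transcript differences between the strains were not tested.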
